A study of Oryza sativa Japonica Group with 6 samples.

Results

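A skipped exon whose length is not a multiple of 3 bases changes the reading frame of a coding transcript when it is left out or taken in. Of 5134 skipped exon events in the splicing table of rice grains, 3209 (62.5%) had such an exon, chosen by exon length alone. The other 1925 events had exons of a multiple of 3 bases and are called frame-keeping below. Grains of the rice line Zhenong 34, labelled wild type and control (3 libraries), were compared with grains of a line labelled sgs3 mutant and EMS (3 libraries). EMS, ethyl methanesulfonate, is a mutagen that makes mainly point mutations. Both groups were made from total RNA of grains with one mRNA library kit. The labels give no grain stage, no gene behind the name sgs3 and no number of plants, and the spread behind each p-value is that of these libraries and may be technical. Whether an exon lies in coding sequence is not in the files used here, so "frame-shifting" describes a length and not a shown effect on a protein.

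In the nucleus the spliceosome joins exons, and it can pass over an exon by joining the exons on either side. A frame shift often brings an early stop codon, and transcripts with one can be destroyed by nonsense-mediated decay, in which the helicase UPF1 acts together with complexes left at exon junctions. In plants and animals many genes of serine/arginine-rich (SR) splicing factors carry exons or alternative splice sites of this kind, which tune the amount of functional transcript. The inclusion level used below is the share of transcripts that hold the exon, from 0 to 1. It is computed from reads over the exon junctions scaled by the length each form offers, so it is at or below the plain share of inclusion reads.

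Libraries are numbered by their position in the splicing cells, which carry no replicate number. The tested frame-shifting events held between 750715 and 949824 junction reads per library. Gene levels are given in TPM, a length-scaled share of each library's transcripts, whose depth is unknown. The labelled tissue was checked with 51 endosperm marker genes, 2 of them at 0 in all libraries. Their summed share of TPM was 4.48%, 30.7% and 23.8% in wild-type replicates 1, 2 and 3 and 37.0% to 42.9% in sgs3. Embryo or aleurone markers (22 genes, 1 at 0 throughout) took 0.145% to 0.622% of TPM in wild type and 0.360% to 0.467% in sgs3, and green tissue markers (20 genes, 1 at 0 throughout) took at most 0.0411% in any library. Wild-type replicate 1 thus stood apart in its endosperm share, and the part of this in the results below was not tested. The gene annotated as an SGS3 homolog with the highest level, LOC_Os12g09580, had 94.92, 40.86 and 53.45 TPM in wild type and 8.73, 11.59 and 29.24 TPM in sgs3 (limma adjusted p = 0.0436, or 0.0978 once the libraries were scaled to each other). By the same test 26.3% of all 16352 tested genes fell on TPM, so this fall was not particular to the gene. LOC_Os03g06340 and LOC_Os12g09590, annotated with the same name, did not pass on TPM (limma adjusted p = 0.316 and 0.417).

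The frame-shifting exons were mostly short. Their median length was 101 bases, with quartiles of 71 and 155 bases and a range from 7 to 2765 bases. Of the 3209 events, 2089 (65.1%) had an exon of 50 to 150 bases, 45 had one of at most 30 bases and 268 had one of more than 300 bases. A length 1 base over a multiple of 3 was found in 1533 events (47.8%) and a length 2 bases over it in 1676 (52.2%). The flanking introns had median lengths of 405 bases upstream and 341 bases downstream. Frame-keeping exons had a median length of 96 bases, with introns of 360 and 326 bases.

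**Figure D1:**
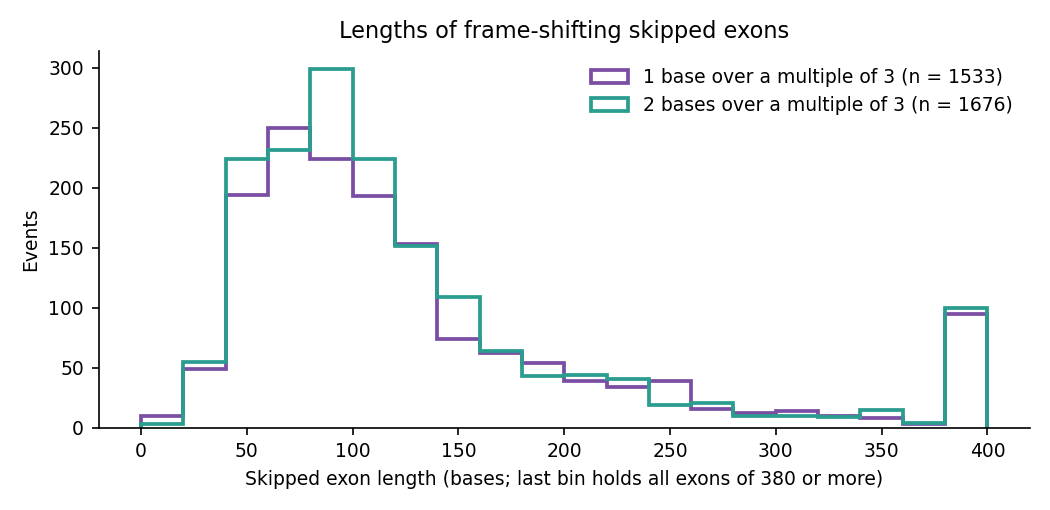
Number of events (vertical axis) by skipped exon length in bases (horizontal axis, bins of 20 bases), for lengths 1 base over a multiple of 3 (1533 events) and 2 bases over it (1676 events). The last bin gathers all longer exons; both outlines rise steeply to a peak below 100 bases and have a long tail.

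The 3209 events came from 3068 distinct exons in 2419 genes. An exon counted in more than 1 event had different partner exons there, which was so for 134 exons. In 558 genes more than 1 event was listed, and the gene of plant cysteine oxidase 3 (LOC_Os03g45210) had 10. The authors marked 2502 events (78.0%) as new splicing, and the sources used here do not define this mark. It did not simply follow the listed transcripts, since some events with both forms in assembled transcripts only did not carry it. The form with the exon belonged to an annotated transcript in 70.0% of events, and the form without it in 14.6%. For frame-keeping events the corresponding shares were 78.5%, 69.8% and 14.5%.

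In these grains most frame-shifting exons were nearly always included. No library had fewer than 20 junction reads for 1551 of the 3209 events (48.3%), in 1253 genes, and only these were tested. They had a median of 813 reads over the 6 libraries. Their median inclusion level was 1 in each of the 6 libraries and their mean lay between 0.907 and 0.919. An inclusion level of 0.9 or more was found for 84.4% to 88.1% of them, a level between 0.1 and 0.9 for 8.19% to 10.7%, and a level of 0.1 or less for 3.55% to 4.90%. Frame-keeping exons gave 86.1% to 88.0% at 0.9 or more. By these shares the libraries of both groups overlapped.

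**Figure D2:**
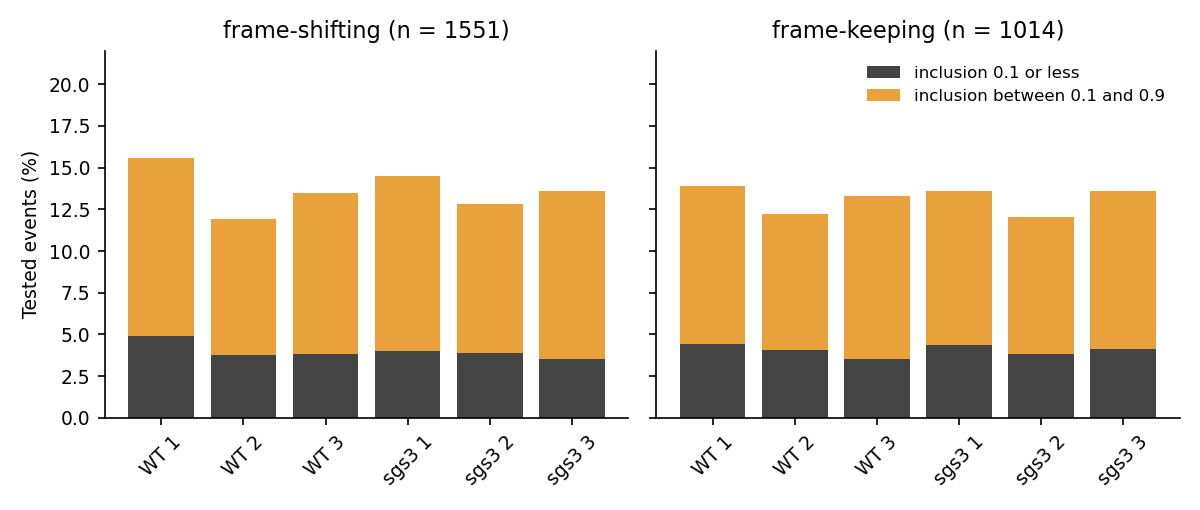
Share of tested events in percent (vertical axis) with an inclusion level of 0.1 or less and between 0.1 and 0.9, stacked, in each library (horizontal axis), for 1551 frame-shifting and 1014 frame-keeping events. Wild-type and sgs3 libraries overlap in both panels, and the remaining events had a level of 0.9 or more.

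Grouped by the mean inclusion level over both groups, 1346 tested events were at 0.9 or more, 144 were between 0.1 and 0.9 and 61 were at 0.1 or less. The authors' undefined mark for new splicing was carried by 94.3% of the first, 18.8% of the second and 4.92% of the third. An annotated transcript without the exon existed for 8.62%, 37.5% and 67.2% of them. The median exon length was 107, 122 and 79 bases, and the median host gene level was 20.2, 15.3 and 33.2 TPM. By length, a mean inclusion level under 0.9 was found for 18.5% of the 205 exons of 31 to 60 bases, 12.5% of the 489 of 61 to 100 bases, 10.5% of the 562 of 101 to 200 bases and 15.7% of the 280 longer ones. Only 15 exons of at most 30 bases were tested, of which 20% were under 0.9.

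Every tested event had a skipping read in at least 1 library. Skipping reads occurred in all 6 libraries for 231 events (14.9%), in wild type alone for 582 (37.52%) and in sgs3 alone for 341 (21.99%). Frame-keeping exons had nearby shares of 13.51%, 38.76% and 23.27%, so the larger share in wild type alone was not particular to frame-shifting exons. The wild-type libraries covered the frame-shifting events more deeply, with medians of 156, 130 and 156 reads per event against 92, 101 and 124 in sgs3.

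Summed over the 1551 events, skipping reads made up 3.62% to 3.96% of junction reads in wild type and 5.17% to 6.05% in sgs3, and the groups did not overlap. Frame-keeping exons ran the other way, with 1.74% to 3.41% in wild type and 0.894% to 1.20% in sgs3. A single frame-keeping event held 1270695 reads, and the frame-keeping shares were not recomputed without it. Over all tested skipped exons the groups overlapped, at 2.60% to 3.56% in wild type and 2.39% to 2.70% in sgs3. The order among the frame-shifting exons rested on a single gene. The gene of starch branching enzyme 1 (LOC_Os06g51084) held 500151 of the junction reads, and the skipping junction described with its exons below was counted there in 2 events. Without this gene skipping reads made up 2.72% to 3.58% in wild type and 1.88% to 2.52% in sgs3, the opposite order.

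Between the groups the inclusion of few frame-shifting exons differed beyond the spread of the libraries. The median difference (sgs3 minus wild type) was 0.001, and 90.1% of events differed by less than 0.05. The mean absolute difference between any 2 libraries was 0.0231 to 0.0282 within wild type, 0.0227 to 0.0236 within sgs3 and 0.0220 to 0.0312 between groups. An event was called when a quasi-binomial model on its junction reads, with dispersions moderated by limma, gave a Benjamini-Hochberg adjusted p under 0.05 and the mean inclusion levels differed by at least 0.1. Of the 1551 frame-shifting events 7 were called (0.451%), 3 with more and 4 with less inclusion in sgs3. The background over all 2565 tested skipped exons was 0.468%, with 0.195% more and 0.273% less included in sgs3. The frame-shifting share was thus near the background, and among 1014 frame-keeping exons 5 (0.493%) were called. An unadjusted p under 0.05 was found for 139 frame-shifting events (8.96%), against 9.67% over all tested skipped exons. The called events were picked by difference and p, so groups without overlap in the descriptions below add no support.

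**Figure D3:**
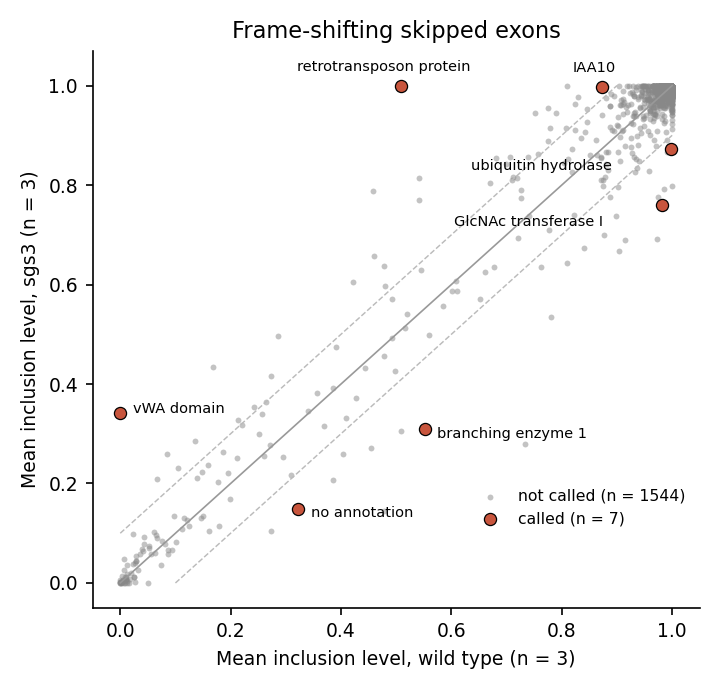
Mean inclusion level in sgs3 (vertical axis) against wild type (horizontal axis), 3 libraries each, for 1551 tested frame-shifting exons; the solid line marks equal levels, the dashed lines differences of 0.1, and the 7 called exons are filled and named. Most points lie in the corner near 1, and the called exons lie outside the dashed lines.

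Among the 3 exons more included in sgs3, the one with the largest difference was an exon of 88 bases on chr6:16701594-16701681 (minus strand) in LOC_Os06g29260, a gene whose protein is annotated as a putative retrotransposon protein. Its inclusion level was 0.467, 0.533 and 0.528 in wild type and 1 in each sgs3 library, so the groups did not overlap. The wild-type libraries held 18, 21 and 26 skipping reads beside 25, 38 and 46 inclusion reads. In sgs3 none of 135 reads skipped the exon, which allows a share of up to 2.22% of reads, for counting error only. The difference was 0.49 (adjusted p = 0.000999, quasi-binomial model with limma). With every sgs3 library at 1, this exon's own spread in the model came from the wild-type libraries alone. Its degrees of freedom counted all libraries, so the p may be too small. Both forms were known to the authors only from assembled transcripts. Retrotransposon sequences often have near-identical copies, and the sources used here do not say how reads shared by copies were counted, so this value is uncertain.

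The second was an exon of 53 bases on chr3:16697114-16697166 (minus strand) in LOC_Os03g29350. The authors' annotation compares its protein with a calcium channel subunit of animals and with a von Willebrand factor A domain protein of Dictyostelium, and its role in rice is not given there. The exon was absent from all 298 wild-type reads, which allows a share of up to 1.01% of reads, and both forms are in annotated transcripts. In sgs3 its inclusion level was 0.234, 0.345 and 0.446, from 28, 37 and 62 inclusion reads beside 68, 52 and 57 skipping reads. Every sgs3 library was above every wild-type library, and the difference was 0.34 (adjusted p = 0.00108, quasi-binomial model with limma). Here the exon's own spread in the model came from the sgs3 libraries alone, so this p may also be too small.

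The third was an exon of 62 bases on chr2:35073977-35074038 (minus strand) in the gene of IAA10 (LOC_Os02g57250), a member of the Aux/IAA family, which repress auxin response factors until auxin triggers their breakdown. Its inclusion level was 0.828, 0.884 and 0.905 in wild type and 1, 1 and 0.994 in sgs3. The wild-type libraries held 75, 23 and 17 skipping reads, and the sgs3 libraries together held 1, beside 700 inclusion reads. The groups did not overlap, and the difference was 0.13 (adjusted p = 0.00697, quasi-binomial model with limma). The annotated transcripts hold the exon, and the form without it came from an assembled transcript.

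Of the 4 exons less included in sgs3, the one with the smallest p was an exon of 106 bases on chr4:27359259-27359364 (plus strand) in LOC_Os04g46190, annotated as ubiquitin carboxyl-terminal hydrolase isozyme L3, an enzyme that frees ubiquitin from small adducts. Its inclusion level was 1, 1 and 0.993 in wild type and 0.847, 0.855 and 0.913 in sgs3. A single read skipped it in wild type, beside 861 inclusion reads, against 13, 13 and 10 reads in the sgs3 libraries. The groups did not overlap, and the difference was -0.13 (adjusted p = 0.0101, quasi-binomial model with limma). No listed transcript lacked the exon.

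An exon of 67 bases on chr2:35814528-35814594 (minus strand) lay in LOC_Os02g58590, annotated as N-acetylglucosaminyltransferase I, the Golgi enzyme that begins the making of complex N-glycans. Its inclusion level was 0.979, 1 and 0.968 in wild type and 0.649, 0.818 and 0.812 in sgs3. The wild-type libraries held 2, 0 and 4 skipping reads beside 134, 126 and 175 inclusion reads, and the sgs3 libraries held 9, 4 and 8 beside 24, 26 and 50. All sgs3 libraries were below all wild-type libraries, with a difference of -0.22 (adjusted p = 0.0419, quasi-binomial model with limma). Here the annotated transcript lacks the exon, and the form with it, the main one in every library, came from an assembled transcript.

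An exon of 139 bases on chr7:10514261-10514399 (plus strand) belonged to MSTRG.20452, an assembled gene without a locus name or TPM. Its inclusion level was 0.307, 0.352 and 0.308 in wild type and 0.192, 0.1 and 0.155 in sgs3, and the groups did not overlap. Inclusion reads numbered 110, 71 and 79 in wild type and 32, 20 and 35 in sgs3, beside 129, 68 and 92 and 70, 93 and 99 skipping reads. The difference was -0.17 (adjusted p = 0.0387, quasi-binomial model with limma).

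The fourth lay in the gene of starch branching enzyme 1 (LOC_Os06g51084), which adds branches to the growing starch molecule. It had 50 bases on chr6:30904107-30904156 (minus strand). Its inclusion level was 0.487, 0.614 and 0.555 in wild type and 0.296, 0.294 and 0.336 in sgs3. Inclusion reads numbered 29, 76 and 48 in wild type and 100, 87 and 119 in sgs3, and skipping reads 23, 36 and 29 and 179, 157 and 177. The groups did not overlap, and the difference was -0.24 (adjusted p = 0.0186, quasi-binomial model with limma). It was the only called event in which the mean inclusion level passed 0.5, from 0.552 ± 0.064 to 0.309 ± 0.024 (SD, n = 3). With limma on logit inclusion levels in place of this model it was not called. The exons of MSTRG.20452 and N-acetylglucosaminyltransferase I were not called there either.

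**Figure D4:**
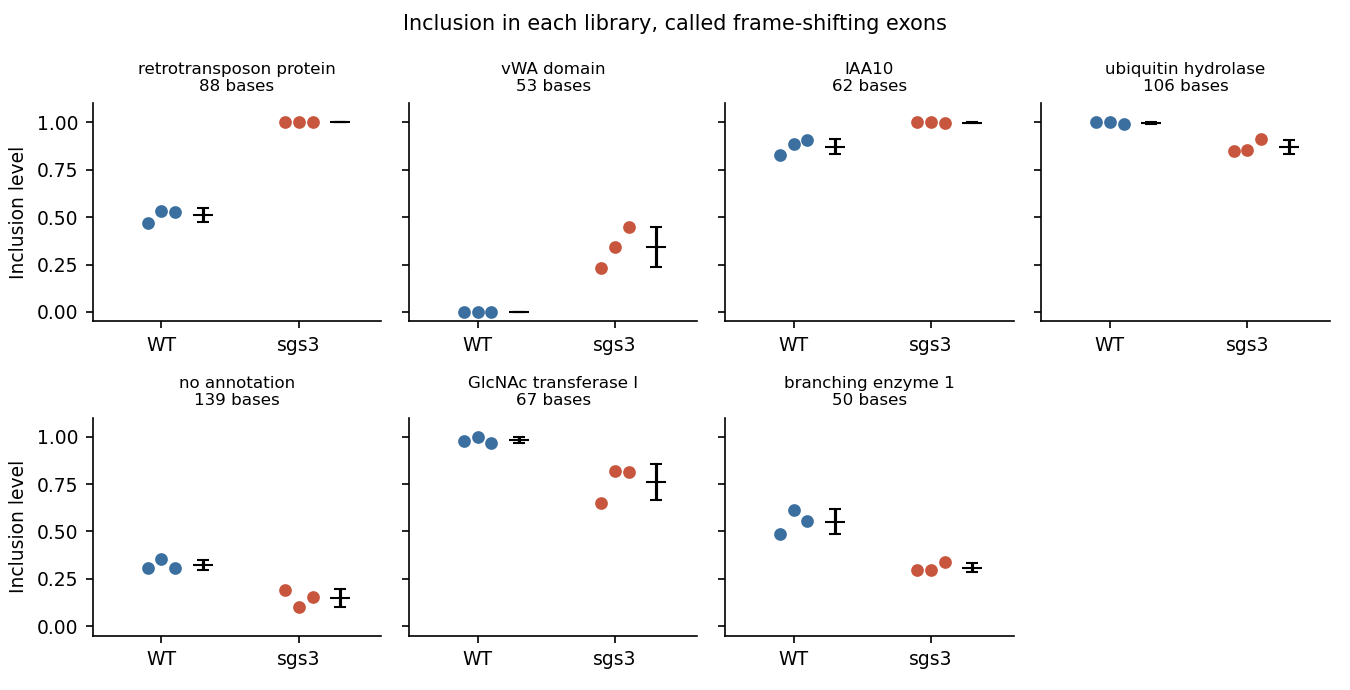
Inclusion level (vertical axis, 0 to 1) in each of the 3 wild-type (WT) and 3 sgs3 libraries for the 7 called frame-shifting exons, with the mean and SD beside the points. In each panel the points of the groups do not overlap. The exons were picked by difference and p, so this adds no support. The largest gap is in the exon of 88 bases, where all sgs3 libraries are at 1.

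The called form of the branching enzyme exon was a minor one. The same exon was listed in 3 events with different partner exons, and these share junction reads. In the event with the main partner, 1117, 6095 and 3155 reads skipped it in wild type and 15233, 15686 and 12415 in sgs3. Its inclusion level there was 0.033, 0.020 and 0.021 in wild type and 0.011, 0.010 and 0.014 in sgs3. The groups did not overlap, but the difference of -0.013 was under 0.1 and the adjusted p was 0.0722 (quasi-binomial model with limma). In the remaining event of this exon the level was 0.956, 1 and 1 in wild type and 1 in each sgs3 library. A longer exon of 1232 bases that shares one end with it (chr6:30904107-30905338) was included at 0.016, 0.010 and 0.010 in wild type and 0.004, 0.004 and 0.006 in sgs3 (difference -0.0073, adjusted p = 0.0394, quasi-binomial model with limma). That exon passed on p and not on size. Elsewhere in this gene, exons of 68 and 907 bases were included at 1 in every library, with 202732 and 186906 reads in all.

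Beside the 1232-base exon, 2 further frame-shifting exons passed on p with a difference under 0.1. An exon of 62 bases in LOC_Os06g04930, whose protein is compared with soybean early nodulin-93, was included at 0.910, 0.961 and 0.960 in wild type and 0.994, 0.992 and 0.988 in sgs3, from 72954 reads (adjusted p = 0.0260, quasi-binomial model with limma). The groups did not overlap. An exon of 191 bases in LOC_Os02g19420, annotated as cell differentiation protein rcd1, was included at 0.983, 0.981 and 0.979 in wild type and 0.934, 0.911 and 0.955 in sgs3 (adjusted p = 0.0419, quasi-binomial model with limma). Here every sgs3 library was lower.

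Outside the p threshold, 3 events with adjusted p from 0.0568 to 0.0952 (quasi-binomial model with limma) differed by at least 0.1 without overlap of the groups. Like the called events, they were picked by difference and p. How many of all tested events had groups without overlap was not counted. An exon of 412 bases in the gene of CBL-interacting protein kinase 31 (LOC_Os03g20380), a kinase activated by calcium sensor proteins, was included at 0.263, 0.242 and 0.315 in wild type and 0.071, 0.130 and 0.112 in sgs3 (adjusted p = 0.0568, quasi-binomial model with limma). An exon of 202 bases in the gene of a polypyrimidine tract-binding protein (LOC_Os03g25980), an RNA-binding splicing regulator, was included at 0.067, 0.051 and 0.079 in wild type and 0.22, 0.209 and 0.2 in sgs3 (adjusted p = 0.0666, quasi-binomial model with limma). An exon of 80 bases in the gene of plant cysteine oxidase 3, of a family that senses oxygen in Arabidopsis, was included at 0.922, 0.939 and 0.947 in wild type and 0.837, 0.830 and 0.835 in sgs3 (adjusted p = 0.0952, quasi-binomial model with limma).

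Most calls were lost when 1 library was left out. The direction of the 7 differences could not turn there, since their groups do not overlap. The exon of LOC_Os06g29260 passed in 4 of the 6 fits that each left out 1 library, with differences of 0.47 to 0.50. Those of LOC_Os03g29350 (0.29 to 0.40), IAA10 (0.10 to 0.14) and branching enzyme 1 (-0.28 to -0.21) passed in 1 of the 6. The exons of the ubiquitin hydrolase (-0.15 to -0.11), MSTRG.20452 (-0.19 to -0.15) and the glycan enzyme (-0.25 to -0.17) passed in 0 of the 6. The number of frame-shifting events called was 6, 3 and 1 without wild-type library 1, 2 and 3, and 2, 0 and 0 without sgs3 library 1, 2 and 3. Of these, 3, 1 and 1 in the first case and 2, 0 and 0 in the second were among the 7.

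A difference of at least 0.1 was found for 67 tested events (4.32%, against 4.21% of all tested skipped exons), 38 of them higher and 29 lower in sgs3. The 60 that were not called rested on fewer reads, with a median of 336 against 898 for the called ones, and had a larger spread, with a median SD of 0.126 in the more variable group against 0.0463. Reads and spread both enter the p-value, so this contrast follows from the calling rule. Of the 60, 32 had an unadjusted p under 0.05 in the quasi-binomial model. The 6 largest differences among the 60 follow, chosen after the values were seen. An exon of 97 bases in MSTRG.6446, an assembled gene without a locus name, was included at 0.569, 1 and 0.631 in wild type and 0.258, 0.119 and 0.46 in sgs3, without overlap (difference -0.45, adjusted p = 0.284, quasi-binomial model with limma). An exon of 56 bases in LOC_Os03g28060 was included at 0.700, 0.463 and 0.268 in wild type and 0.148, 0.139 and 0.149 in sgs3 (adjusted p = 0.121, quasi-binomial model with limma). An exon of 46 bases in LOC_Os02g08360, annotated as a U2 snRNP-associated protein of the spliceosome, was included at 0.681, 0.569 and 0.375 in wild type and 0.899, 0.822 and 0.721 in sgs3 (adjusted p = 0.154, quasi-binomial model with limma). In both the groups did not overlap, and the wild-type libraries varied widely. An exon of 128 bases in LOC_Os01g31110, annotated as the chloroplast intron splicing protein CRS2-associated factor 1, was included at 1, 0.915 and 1 in wild type and 0.694, 0.805 and 0.574 in sgs3, without overlap and from 150 reads in all (adjusted p = 0.207, quasi-binomial model with limma). An exon of 412 bases in LOC_Os05g07070, compared with the Arabidopsis ubiquitin ligase MBR2, was included at 0.358, 0.525 and 0.491 in wild type and 0.616, 0.751 and 1 in sgs3 (adjusted p = 0.335, quasi-binomial model with limma). An exon of 74 bases in LOC_Os07g33330, compared with the tobacco RNA-binding protein RBP45, was included at 0.060, 0.332 and 0.112 in wild type and 0.502, 0.573 and 0.230 in sgs3, so here the groups overlapped (adjusted p = 0.488, quasi-binomial model with limma).

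The authors' deposited table gave an FDR under 0.05 for 158 of the 3209 frame-shifting events. Of these, 111 in the authors' deposited table also differed by at least 0.1 (3.46%), 51 with more and 60 with less inclusion in sgs3. The background over all skipped exons in the authors' deposited table was 3.35%, and 61 frame-keeping events (3.17%) met the same rule. Of the 111, 78 had fewer than 20 reads in a library and were not tested here. The other 33 include all 7 events called here, and 30 of the 33 had an unadjusted p under 0.05 in the quasi-binomial model. Both tests use the same junction reads, and the 33 were picked by FDR and difference, so this overlap is not independent support.

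For the machinery of nonsense-mediated decay and the exon junction complex, 2 frame-shifting exons were tested and neither was called. An exon of 74 bases in the gene of UPF1 (LOC_Os07g31340), the helicase of nonsense-mediated decay, was included at 1, 1 and 0.837 in wild type and 1, 0.967 and 1 in sgs3, with 12 skipping reads in wild-type library 3 and 1 in sgs3 library 2. Its difference was 0.043 and turned to -0.011 without that library. An exon of 64 bases in the gene of SMG1 (LOC_Os03g52794), a kinase that phosphorylates UPF1 in animals, was at 0.988 in wild-type library 1 and at 1 in the other 5. On gene levels 6 of the 16 tested genes of this list fell on TPM and none rose, against 26.3% and 1.55% of all 16352 tested genes. After scaling between libraries none passed in either direction, and the list's median log2 change moved from -1.15 to -0.09.

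Of the SR splicing factors, 9 frame-shifting exons in 8 genes were tested and none was called. In 5 of the 9 the mean inclusion level was 0.9 or more in both groups, and the other 4 ranged lower. The exon with the most reads, of 89 bases in RSZ23 (LOC_Os02g39720), was included at 0.997, 1 and 0.999 in wild type and 0.993, 0.997 and 0.997 in sgs3. In the gene compared with Arabidopsis RS2Z33 (LOC_Os01g06290) an exon of 134 bases was at 0.988 or more in every library, whereas a second one of 59 bases was at 0.033, 0.102 and 0.033 in wild type and 0.027, 0.117 and 0.028 in sgs3. An exon of 349 bases in the gene compared with RS41 (LOC_Os02g03040) was at 0.052, 0.070 and 0.135 in wild type and 0.053, 0.042 and 0.103 in sgs3. Both genes compared with SR45a had intermediate levels. In LOC_Os08g29650 an exon of 494 bases was at 0.228, 0.517 and 0.361 in wild type and 0.252, 0.405 and 0.290 in sgs3. In LOC_Os03g15890 an exon of 98 bases was at 0.918, 0.845 and 0.663 in wild type and 0.544, 0.758 and 0.625 in sgs3 (difference -0.17, adjusted p = 0.512, quasi-binomial model with limma). The groups overlapped in each of these exons. On TPM 9 of 27 tested SR genes fell and none rose, against 26.3% and 1.55% of all tested genes, and after scaling none passed in either direction.

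For starch synthesis, 24 frame-shifting exons in 10 genes were tested, and the branching enzyme exon was the only one called. In 21 of the 24 the mean inclusion level was 0.9 or more in both groups. The exon with the most reads of all was one of 118 bases in the small subunit of ADP-glucose pyrophosphorylase (LOC_Os08g25734), the enzyme that makes the glucose donor of starch. Of 258076 reads, 8 skipped it, all in sgs3 library 1. An exon of 145 bases in a second branching enzyme gene (LOC_Os02g32660) had 1 skipping read of 163056. An exon of 113 bases in a large subunit of ADP-glucose pyrophosphorylase (LOC_Os01g44220) had a level of 0.999 or more in every library. On TPM 1 of 21 tested starch genes fell and none rose, against 26.3% and 1.55% of all tested genes, and after scaling none passed.

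The storage protein and small RNA lists had 1 tested frame-shifting exon each. The storage list was built from words in the annotation, and its exon lies in a plastid lipid-associated protein gene (LOC_Os03g49720), which is not a storage protein. It was at 1 in all wild-type libraries and at 1, 0.981 and 0.980 in sgs3. The small RNA exon, of 158 bases, lies in LOC_Os12g09590, one of the genes annotated as an SGS3 homolog. It was at 1 in every library but sgs3 library 1, where 1 read skipped it beside 28 inclusion reads and the level was 0.933. Of 51 tested storage genes 11 rose and 5 fell on TPM, and 9 rose and none fell after scaling. Of 28 tested small RNA genes 7 fell on TPM and 1 fell after scaling, and none rose. Over all tested genes 1.55% rose and 26.3% fell on TPM, and 1.6% rose and 1.03% fell after scaling, so the small RNA counts were near the background.

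The shortest tested exon had 16 bases, in LOC_Os01g47740, annotated as a ubiquitin ligase of the MBR1 type, and was counted in 2 events with partner exons that differ. In the first it was included at 0, 0.006 and 0.017 in wild type and 0.040, 0.040 and 0.063 in sgs3, without overlap of the groups (adjusted p = 0.284, quasi-binomial model with limma). In the second it was at 0, 0 and 0.080 in wild type and 0.022, 0.023 and 0.075 in sgs3, and the groups overlapped. An exon of 20 bases in a methyltransferase-like gene (LOC_Os08g40580) was at 0.989 or more in wild type and 0.980 or more in sgs3.

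Some well-covered exons were neither nearly always nor nearly never included. These examples were picked after the values were seen from those with many reads, not strictly by read number, and none was called. The one with the most reads, an exon of 137 bases in the plant cysteine oxidase 3 gene (10360 reads), is not among them. In LOC_Os02g55080, annotated as HEADING DATE REPRESSOR 1, an exon of 350 bases was at 0.213, 0.685 and 0.480 in wild type and 0.702, 0.700 and 0.569 in sgs3, from 5282 reads (adjusted p = 0.515, quasi-binomial model with limma). The wild-type libraries spanned most of the range. In LOC_Os03g07226, compared with a chloroplast thioredoxin-like protein, an exon of 391 bases was at 0.750, 0.658 and 0.549 in wild type and 0.585, 0.538 and 0.592 in sgs3. In LOC_Os08g39830, compared with the Arabidopsis ETHYLENE INSENSITIVE 3-like 3 protein (EIL3), an exon of 55 bases stayed between 0.820 and 0.893 in the 6 libraries. In LOC_Os02g10080, a CCCH zinc finger gene, an exon of 61 bases stayed between 0.779 and 0.856.

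Others were nearly never included. An exon of 70 bases in LOC_Os04g52180, a gene without a description, was included at 0.003 or less in every library, from 16140 reads. An exon of 103 bases in the gene of the small nuclear ribonucleoprotein F (LOC_Os02g08090), a core spliceosome protein, was held by 2 of 9946 reads. An exon of 116 bases in a gene of the 60S ribosomal protein L35a (LOC_Os05g48310) was at 0.006, 0 and 0.012 in wild type and 0, 0 and 0.012 in sgs3. That gene's level was 349 ± 271 TPM in wild type (range 135 to 654) and 40.2 ± 42.8 TPM in sgs3 (SD, n = 3). No test result for it is given here, and 26.3% of all tested genes fell on TPM. The exon's inclusion level was at or under 0.012 in every library.

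The host genes of frame-shifting exons were compared on TPM and again after median-of-ratios scaling between libraries. Of 2419 host genes, 2354 were in the gene table and 2251 reached 1 TPM in at least 3 libraries. By limma's test on log2(TPM + 1), 26 (1.16%) rose and 540 (24.0%) fell in sgs3, against backgrounds of 1.55% and 26.3% over 16352 tested genes. After scaling 23 rose and 12 fell, against backgrounds of 1.6% and 1.03%. The median log2 change of the host genes was -0.86 on TPM and 0.05 after scaling, beside -0.86 and -0.01 over all tested genes. The fall on TPM was thus shared with the whole table and depended on the scale. It also depended on single libraries: without wild-type replicate 2 or sgs3 replicate 3, 1061 and 787 host genes were called, and without wild-type replicate 1 or 3 or sgs3 replicate 1 or 2, 22, 3, 1 and 1. In bulk grain RNA fewer cells of a type and less RNA per cell cannot be told apart. The endosperm shares of TPM given above moved with the groups, and their part in these changes was not tested.

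Among the 6 host genes of called exons that have TPM values, 1 passed on TPM, by a fall. Over all tested genes 26.3% fell and 1.55% rose, so this count says nothing particular about these genes. N-acetylglucosaminyltransferase I had 28.7, 17.5 and 26.1 TPM in wild type and 6.42, 7.69 and 9.62 TPM in sgs3, without overlap. Its log2 change was -1.48 (SE 0.34, limma adjusted p = 0.0436) on TPM and -0.46 (SE 0.20, limma adjusted p = 0.159) after scaling. The TPM call held without wild-type replicate 2 (-1.69) or sgs3 replicate 3 (-1.62) and was lost without wild-type replicate 1 (-1.34) or 3 (-1.41) or sgs3 replicate 1 (-1.36) or 2 (-1.47). The ubiquitin hydrolase gene had 63.8, 28.6 and 32.5 TPM in wild type and 12.3, 16.7 and 20.2 TPM in sgs3. Its log2 change was -1.23 on TPM and -0.18 after scaling, with limma adjusted p of 0.0506 and 0.617. Branching enzyme 1 had 1578, 2801 and 1945 TPM in wild type and 3123, 3942 and 3059 TPM in sgs3, the only 1 of the 6 higher in every sgs3 library (log2 change 0.71 on TPM and 1.81 after scaling, limma adjusted p of 0.270 and 0.119). IAA10 had 58.6, 29.1 and 25.6 TPM in wild type and 16.1, 26.4 and 24.4 TPM in sgs3, so the groups overlapped, and its log2 change went from -0.67 on TPM to 0.39 after scaling. LOC_Os06g29260 (12.0 ± 2.84 and 11.7 ± 1.46 TPM) and LOC_Os03g29350 (8.70 ± 4.07 and 9.40 ± 0.91 TPM, wild type and sgs3, SD, n = 3) had overlapping groups on TPM, although their exons had the widest called differences in inclusion. After scaling their log2 changes moved from -0.03 to 0.98 and from 0.20 to 1.15, with limma adjusted p of 0.106 and 0.142.

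**Figure D5:**
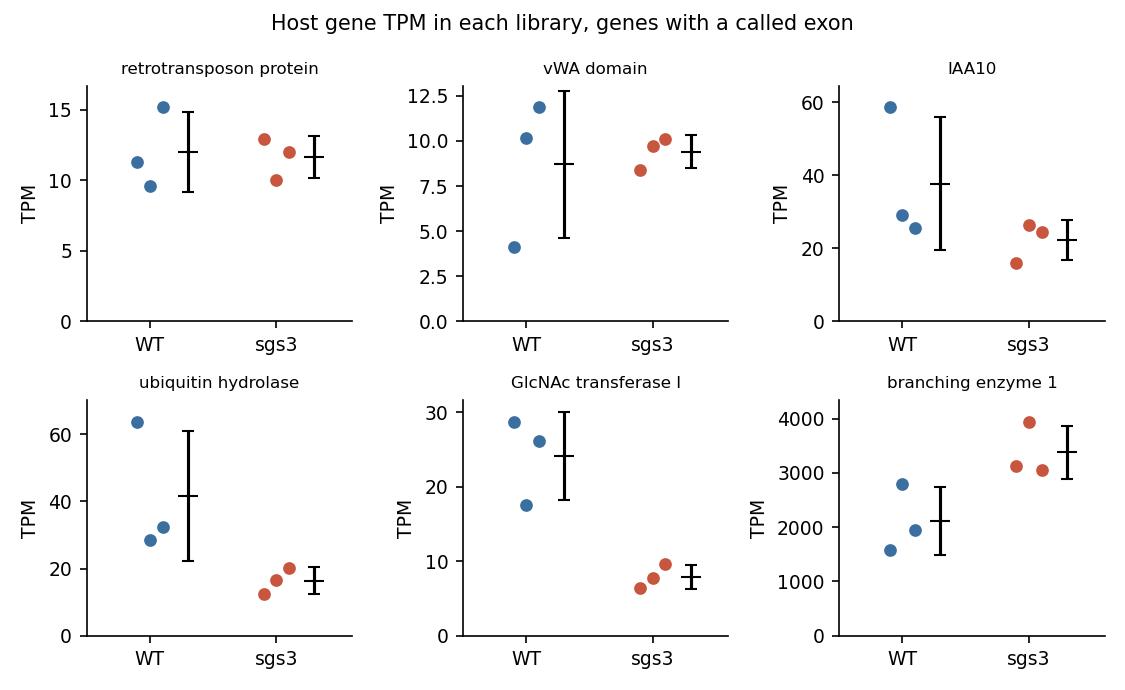
TPM (vertical axis, from 0, its own scale in each panel) in each of the 3 wild-type (WT) and 3 sgs3 libraries for the 6 host genes of called exons that have TPM values, with the mean and SD beside the points. The N-acetylglucosaminyltransferase I and ubiquitin hydrolase genes are lower and branching enzyme 1 is higher in every sgs3 library; in the other 3 the groups overlap.

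Across 1527 tested frame-shifting events with a TPM value, the difference in inclusion and the log2 TPM change of the host gene had a Pearson correlation of 0.0050. Events of one gene share its TPM and its reads, so this describes the table and is not a test. Among the 64 of them that differed by at least 0.1 the correlation was -0.103.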

How the data were processed

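Libraries were made from grain total RNA with a SMARTer mRNA kit, per the labels. Tools named in the submitters' processing notes, without roles, are StringTie, RSEM, Bowtie2, HISAT2 2.1.0 and DESeq2 1.12.4. The genome build is not given in these sources. The gene table deposited by the authors holds TPM, although it is named as counts. The splicing tables deposited by the authors hold inclusion levels as a fraction from 0 to 1, junction reads per library, and a p-value and FDR of the authors' own test, per the file headers. The group headings of the read columns are exchanged: recomputed inclusion levels match the other group's to within 0.0005. Therefore groups follow the inclusion headings. Of 1084 tested events in genes with a TPM change of 2-fold or more, 99.4% followed these groups. Junction reads at all 6 positions tracked best the TPM replicate of the same number. Reads are in whole numbers and intervals cover counting error only.

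Events of all 5 splicing tables, with a minimum of 20 junction reads per library, were fitted with a quasi-binomial logistic model in R 4.3.3, dispersions moderated by limma 3.58.1 (5.51 prior degrees of freedom), and p adjusted over all tables by Benjamini-Hochberg. The other tables held 2 wild-type libraries. Gene levels were tested with limma on log2(TPM + 1) for genes with at least 1 TPM in 3 libraries. A fold change on this scale understates that of low genes. Both scripts were tested on simulated data. Coordinates count from 1. No sequence could be read.

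The members, gene lists and tests were chosen with earlier results of these data known. Named were the called events, the 3 with the most reads, the 3 shortest, and per list the called event or the one with most reads. Events just outside a threshold, further list members and other examples were added after their values were seen. Tables and figures used Python 3.11.15, numpy 2.4.6, pandas 2.3.3 and matplotlib 3.10.9. Alternatives covered read minimum, model, difference, scaling, filter, pseudocount, block and left-out libraries.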

Additional observations from a re-analysis of the deposited data

How the results depend on the processing

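The count of 7 frame-shifting exons was 7 with a minimum of 10 junction reads, 5 with 50, 9 with the skipped exon table fitted alone, 6 with limma on logit inclusion levels (4 of the 7 among them) and 7 with a dispersion of at least 1, an alternative chosen after seeing the data. It was 4 with a minimum difference of 0.2, 10 with none, 33 by the authors' deposited FDR and 0 to 6 with each library left out. The count of 12 over all skipped exons was 6 with a minimum of 50 reads, 19 with no minimum difference, 56 by the authors' deposited FDR and 0 to 9 with each library left out. The count of 566 host genes called on TPM was 35 after scaling, 1 without a filter on low values, 522 with a pseudocount of 0.1 and 1 to 1061 with each library left out; the cause was not tested. Signs turned for the inclusion difference of the UPF1 exon (-0.011 without wild-type library 3, range to 0.0705) and of the second event of the 16-base exon (-0.0042 without sgs3 library 3, range to 0.04). Log2 TPM changes turned for IAA10 (0.39) and LOC_Os06g29260 (0.98) after scaling, for LOC_Os03g29350 without wild-type replicate 1 (-0.21, range to 0.46), and for LOC_Os06g29260 without wild-type replicate 3 (0.14) or sgs3 replicate 2 (0.068, range from -0.16). With the replicate number as a block 3 host genes were called on TPM, but the numbers share only a label: deviations of same-numbered libraries correlated at -0.527, 0.212 and -0.091, and 1 of 6 libraries was closest to its own number. No paired analysis was possible because the splicing cells carry no replicate number, and positions were not matched to replicates by their values for pairing. With 3 libraries per group, and under 20 reads in a library for 1658 of 3209 events, differences in those events were not tested.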
